A study of Mus musculus with 6 samples.

Results

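The genes described here are those of 6 matrix metalloproteinases (Mmp8, Mmp9, Mmp12, Mmp13, Mmp14 and Mmp19), 3 tissue inhibitors of metalloproteinases (Timp1, Timp2 and Timp3) and the related membrane protease Adam8. They were chosen by name, and all 10 were found among the 54966 features of the deposited expression table. RNA had been sequenced from macrophages sorted from mouse skeletal muscle 3 days after injury with BaCl2, a chemical that destroys muscle fibres and starts their regeneration. Sorting kept cells positive for CD11b and F4/80 with low Ly6C, which the labels call pro-repair. Of the 6 libraries, 3 came from young and 3 from old mice, all of wild-type genotype, injured alike and sampled at the same time. The labels state neither age in weeks, strain nor sex, nor whether a library came from 1 animal or a pool. P-values therefore reflect library-to-library spread, part of which may be technical. The labels give no batch.

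Matrix metalloproteinases are zinc-dependent enzymes that cut proteins of the extracellular matrix. Most are secreted as inactive precursors whose propeptide must be removed, and a few are anchored in the cell membrane. Tissue inhibitors of metalloproteinases bind the active site of the mature enzyme and block it. In injured muscle this system clears damaged matrix, opens basement membranes to migrating cells and releases growth factors stored in the matrix, and macrophages are one of its sources.

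Libraries held between 16543907 and 19400942 recovered fragments (sequenced pieces of RNA assigned to annotated genes). All values are FPKM (fragments per kilobase, normalised for library size), so levels can be compared between genes and, apart from small differences in scaling, between libraries. The FPKM of all genes summed to 322183 to 330527 in young and to 331408 to 344850 in old libraries. The levels of 8 macrophage markers are given as a description, since the sort itself selected on the proteins of Itgam and Adgre1. All 8 were above the minimum of 1 FPKM in mean, and their summed level was 12982 to 15103 FPKM in young and 12531 to 16207 FPKM in old libraries. Some markers of other cells, such as Csf3r and Acta1, passed that minimum too. Lyz2, which encodes lysozyme, made up 64.7% to 74.8% of that sum. Of the 8 markers 4 had an unadjusted p under 0.05, all with old libraries wholly above young ones (Adgre1, the F4/80 antigen, change 0.30; Itgam, the CD11b chain, 0.39; Cd68, 0.50; Fcgr1, 0.37), and none was called. Old and young libraries were compared over the 11108 genes whose mean reached 1 FPKM, using limma on log2(FPKM + 1) with Benjamini-Hochberg adjustment over all of them. Changes are old minus young on that scale, which understates the change of low genes, and SE is the standard error. At an adjusted p under 0.05, 4 genes were called, 0.036% of those tested. Beside the 4 macrophage markers, 8.84% of all tested genes had higher values in old at an unadjusted p under 0.05. In 12.3% the old libraries lay wholly above the young ones.

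Of the 10 genes, 9 reached the minimum level and were tested, and Timp3 did not reach it. None of the 9 passed the adjusted threshold in limma, and none passed in limma voom on the recovered fragments. At an unadjusted p under 0.05 there were 2 with higher values in old, Mmp8 and Timp2, and 2 with lower values, Mmp9 and Mmp14. Over all tested genes 15% had such a p, 8.84% higher and 6.18% lower. For the same 4 genes the 3 old libraries did not overlap the 3 young ones. Over all tested genes the groups did not overlap in 20.9%, with 12.3% higher and 8.59% lower in old. The median change of the 9 was 0.22, beside 0.01 over all tested genes, with 6 positive and 3 negative.

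**Figure D1:**
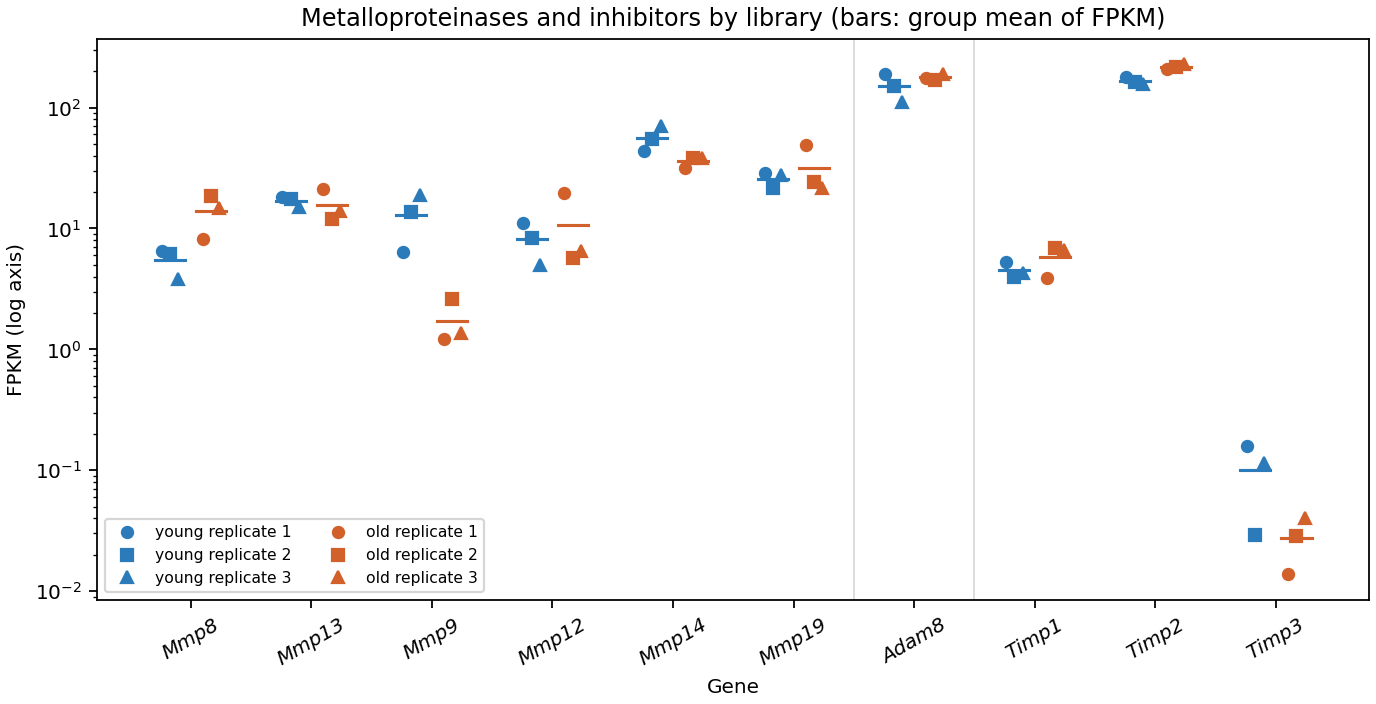
FPKM (log axis) of the 10 genes in each library, with young libraries in blue, old libraries in orange, marker shapes for the replicate number and bars for the group mean. Timp2 and Adam8 lie above 100 FPKM in all 6 libraries, Timp3 lies below 0.2 FPKM in all of them, and the group means of Mmp9 lie farthest apart.

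The levels spanned a wide range. Timp2 and Adam8 were the highest of the set, at the 98.1 and 97.6 percentiles of mean level over the tested genes, and their library ranges overlapped in young but not in old. Mmp14 and Mmp19 came next, at the 90.5 and 84.4 percentiles, and their ranges did not overlap in young but did in old. Mmp13, Mmp8, Mmp12, Mmp9 and Timp1 followed in order of mean level. Of these, Mmp13 lay above Mmp8 and Timp1 in every young library, whereas Mmp8 (8.26 to 18.6 FPKM) and Mmp13 (12.1 to 21.1 FPKM) overlapped in old. Timp3 was lowest in all 6 libraries.

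Mmp9 encodes gelatinase B, which cuts denatured collagen and the type IV collagen of basement membranes. Its level was 6.42, 13.8 and 18.8 FPKM across young replicates 1 to 3, and 1.22, 2.59 and 1.36 FPKM across old replicates 1 to 3. Every old library lay below every young one, and young replicate 1 was the young library nearest to the old group. The young mean was 13.0 ± 6.23 FPKM and the old mean 1.72 ± 0.757 FPKM (SD, n = 3 per group), so the old mean was 13.2% of the young one. The change was -2.29 (SE 0.364, limma adjusted p = 0.093), and its unadjusted 95% interval ran from -3.15 to -1.42. No tested gene had a larger fall in mean on this scale. Larger falls were found for 7 genes at a pseudocount of 0.1, for 23 at 0.01, for 1 in voom and for 1 without young replicate 2. Old libraries held 77, 158 and 88 fragments of the gene against 420, 821 and 1133 in young, so low counts did not limit the comparison, and the exact two-sided permutation test gave p = 0.1, the smallest that 3 against 3 libraries allow, as it did for Mmp8, Mmp14 and Timp2. Without young replicate 1 the change was -2.69 and passed (limma adjusted p = 0.0484), as it did with libraries weighted by their spread (-2.42, adjusted p = 0.0355). On GRCm38 it occupies chromosome 2, 164940780 to 164955850.

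Markers of other cells were set beside Mmp9, since osteoclasts and neutrophils are known to make it. Of 9 genes marking osteoclast-like cells, 5 were tested and 4 of these had old libraries wholly below young ones (8.59% of all tested genes did), with none called. The exception was Atp6v0d2, a subunit of the vacuolar proton pump, which overlapped between groups (change 0.12, limma adjusted p = 0.841). The list's summed level was 186.2 to 234.7 FPKM in young and 121.7 to 145.0 FPKM in old. Acp5, the tartrate-resistant acid phosphatase of osteoclasts, had 119 ± 23.8 and 60.6 ± 1.41 FPKM (change -0.94, limma adjusted p = 0.0826). Ocstamp, a membrane protein needed for cell fusion, had 3.97 ± 0.265 and 2.10 ± 0.337 FPKM, and Calcr, the calcitonin receptor that defines mature osteoclasts, was listed at 0 in 4 of the libraries and at most at 0.0304 FPKM. The 4 lower genes moved with Mmp9, and their part in its difference was not tested. In sorted cells sequenced in bulk, fewer cells of one type and less RNA per cell cannot be told apart. Of 12 neutrophil markers, 5 were tested, and 1 lay wholly higher and 1 wholly lower in old, beside 12.3% and 8.59% of all tested genes. The summed level of the 12 was 36.5 to 44.3 FPKM in young and 42.3 to 54.7 FPKM in old. The defining marker Ly6g was listed at 0 in all 6 libraries, and Csf3r, which macrophages also express, made up 82.6% to 87.8% of the sum.

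Several muscle transcripts had lower values in old too, as Mmp9 and Mmp14 did. Of 7 muscle markers 5 were tested, all 5 changes were negative, and in 4 the old libraries lay wholly below the young ones (8.59% of all tested genes did). Ckm (0.270 and 0.301 FPKM in mean) and Myod1 (0.474 and 0.352 FPKM) were below the minimum level and overlapped between groups. Their summed level was 14.1 to 18.1 FPKM in young and 5.53 to 9.26 FPKM in old. Actc1, the cardiac actin also made by regenerating fibres, was 1 of the 4 genes called over the whole table, at 1.91 ± 0.197 and 0.125 ± 0.0839 FPKM (SD, n = 3 per group; change -1.37, limma adjusted p = 0.0444), although no gene was called when any library other than young replicate 1 was left out. Its fragments numbered 53, 58 and 50 across young replicates 1 to 3 and only 4, 1 and 6 across old replicates 1 to 3. Acta1, the skeletal muscle actin, had 5.26 and 2.33 FPKM (change -0.93, adjusted p = 0.172), and Myog, which drives muscle differentiation, had 2.12 and 0.746 FPKM (change -0.81, adjusted p = 0.201). The part of muscle RNA in the differences of Mmp9 and Mmp14 was not tested. The summed dendritic cell markers (7.38 to 9.90 FPKM in young, 3.17 to 8.16 FPKM in old) and endothelial markers (6.84 to 8.82 and 5.07 to 10.2 FPKM) overlapped between groups, but single markers did not. Of 3 endothelial markers tested, Pecam1 lay wholly lower in old, at 2.41 ± 0.172 and 1.35 ± 0.0208 FPKM (change -0.53, limma adjusted p = 0.104). Cdh5 and Kdr overlapped. Of 2 dendritic cell markers tested, Cd209a lay wholly lower (change -0.82, limma adjusted p = 0.2) and Ccr7 overlapped. Xcr1, below the minimum level, was wholly lower too. The part of these cells was not tested.

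**Figure D2:**
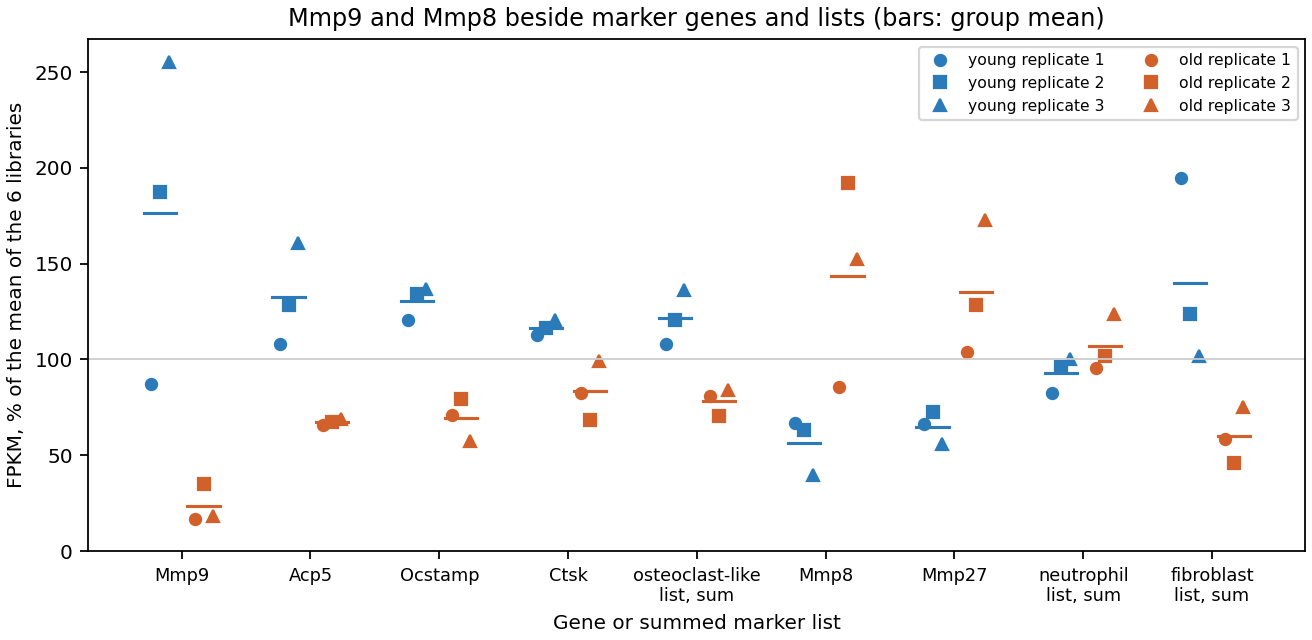
FPKM of Mmp9, Mmp8 and Mmp27, of 3 osteoclast-associated genes and of 3 summed marker lists, each as a percent of its own mean over the 6 libraries (points: libraries; bars: group means; blue young, orange old). Mmp9, Acp5, Ocstamp, Ctsk and the summed osteoclast-like and fibroblast lists lie lower in old in every library, Mmp8 and Mmp27 lie higher, and the neutrophil sum overlaps between groups.

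Mmp14 (chromosome 14, 54431612 to 54445364) encodes a membrane-anchored metalloproteinase that cuts collagen at the cell surface and activates the secreted precursor of Mmp2. Its level was 43.9, 55.0 and 70.1 FPKM across young replicates 1 to 3, and 31.4, 38.5 and 38.4 FPKM across old replicates 1 to 3. The old libraries all lay below the young ones, the gap being narrowest between young replicate 1 and old replicate 2. Group means were 56.3 ± 13.1 and 36.1 ± 4.11 FPKM (SD, n = 3 per group), a change of -0.61 (SE 0.171, limma adjusted p = 0.207; 95% interval -1.01 to -0.20, unadjusted). Mmp2, its best-known substrate, was low, at 1.68, 2.03 and 2.33 FPKM in young and 1.24, 1.88 and 1.55 FPKM in old, and the groups overlapped (change -0.24, limma adjusted p = 0.452). Fibroblasts express both genes. Of 9 fibroblast markers 1, Col1a1, was tested and lay wholly lower in old, as 8.59% of all tested genes did. The summed level of the 9 was 3.59 to 6.86 FPKM in young and 1.62 to 2.65 FPKM in old. In young most of it came from the collagen genes Col1a1, Col1a2 and Col3a1. Below the minimum level, Col1a2, Col3a1, Lox and Pdgfra lay wholly lower too, whereas Dcn, Lum, Dpt and Pi16 overlapped. Pdgfra, which defines muscle fibroblasts, was at 0.0237 FPKM or less. The part of fibroblast RNA in the difference of Mmp14 was not tested.

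Mmp8 (chromosome 9, 7558456 to 7568485) encodes the collagenase first found in neutrophils, which cuts fibrillar collagen. Its level was 6.47, 6.13 and 3.83 FPKM across young replicates 1 to 3, and 8.26, 18.6 and 14.7 FPKM across old replicates 1 to 3. All old libraries lay above all young ones, with old replicate 1 close to the young group. Means were 5.47 ± 1.44 and 13.8 ± 5.21 FPKM (SD, n = 3 per group), a ratio of 2.53, and the change was 1.16 (SE 0.291, limma adjusted p = 0.18; 95% interval 0.47 to 1.85, unadjusted). The neutrophil sums given above overlapped between the groups, and single markers went both ways. Cd177, a neutrophil surface protein, lay wholly higher in old, at 1.26 ± 0.196 and 2.67 ± 0.871 FPKM (change 0.68, limma adjusted p = 0.184). Retnlg lay wholly lower in old, at 1.65 ± 0.658 and 0.532 ± 0.327 FPKM (change -0.79, limma adjusted p = 0.213), on 2 to 24 fragments per library. The neutrophil elastase gene Elane did so too, at 0.363 FPKM or less and on 0 to 6 fragments per library. S100a8 overlapped between groups, with its highest values of 3.35 and 2.28 FPKM in old replicates 2 and 3 (change 0.41, adjusted p = 0.628). S100a9, its partner, was listed at 0 in all libraries but young replicate 1.

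The sum of the monocyte markers, much of it from Chil3, moved with Mmp8, although the sort had kept cells with low Ly6C. The 6 markers summed to 124.6, 108.7 and 103.0 FPKM across young replicates 1 to 3, and to 125.5, 190.0 and 132.5 FPKM across old replicates 1 to 3. Every old sum lay above every young one, old replicate 1 by little, and the libraries stood in the same order as for Mmp8. Of 5 markers tested, 2 had higher and 1 lower values in old at an unadjusted p under 0.05, and none was called. Over all tested genes these shares were 8.84% and 6.18%. Plac8 lay wholly higher in old, at 10.9 ± 4.54 and 18.3 ± 1.05 FPKM (change 0.76, limma adjusted p = 0.23). Ly6c2, which encodes a Ly6C antigen, was 2.28 ± 0.946 and 5.71 ± 2.84 FPKM and overlapped (change 0.97, adjusted p = 0.305), whereas Ccr2, the chemokine receptor of inflammatory monocytes, was the lower one, at 37.6 and 24.9 FPKM (change -0.55, adjusted p = 0.331). Chil3, a chitinase-like protein of myeloid cells and the highest of the list in mean, overlapped (change 0.69, adjusted p = 0.389). It had 84.6, 50.6 and 44.0 FPKM across young replicates 1 to 3, and 65.9, 145 and 84.7 FPKM across old replicates 1 to 3. The sums thus followed Chil3 in large part and do not stand for the list as a whole. The part of these cells in the difference of Mmp8 was not tested.

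Mmp8 is 1 of 10 metalloproteinase genes in a cluster on mouse chromosome 9, which spans 7272514 to 7699585 (GRCm38), or 427.1 kb. In chromosomal order the genes are Mmp13, Mmp12, Mmp1b, Mmp3, Mmp1a, Mmp10, Mmp8, Mmp27, Mmp20 and Mmp7. Only 4 of the 10 reached a mean of 1 FPKM, and they form 2 pairs of neighbours, Mmp13 with Mmp12 and Mmp8 with Mmp27. Mmp3, Mmp1a, Mmp20 and Mmp7 were listed at 0 in all 6 libraries, and for Mmp3 a count of 3 fragments would have been 0.0901 to 0.099 FPKM. Mmp10 stood at 0.0942 to 0.207 FPKM in young and 0.27 to 0.325 FPKM in old. Mmp27, a metalloproteinase gene separated from the end of Mmp8 by 2910 bases on the same strand, had 8.32, 9.04 and 6.96 FPKM across young replicates 1 to 3 and 13.0, 16.0 and 21.6 FPKM across old replicates 1 to 3. As for Mmp8, every old library lay above every young one, although the highest old library was replicate 3 for Mmp27 and replicate 2 for Mmp8. The change of Mmp27 was 0.95 (SE 0.178, limma adjusted p = 0.14).

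**Figure D3:**
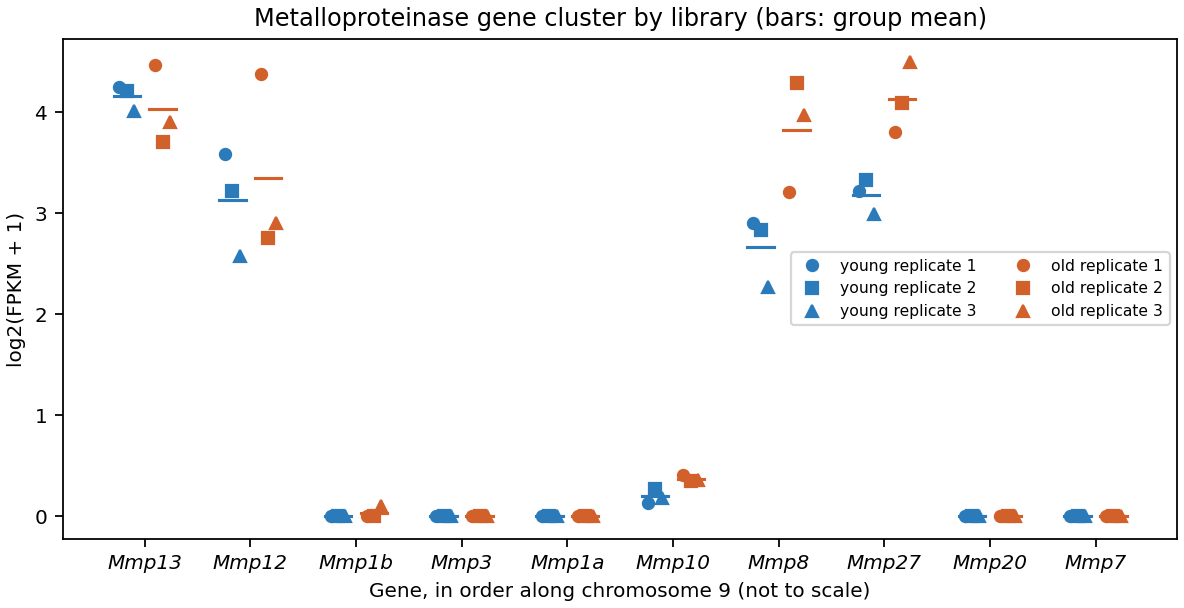
Level on the log2(FPKM + 1) scale of the 10 metalloproteinase genes of the chromosome 9 cluster, in chromosomal order (points: libraries; bars: group means; blue young, orange old). Mmp13, Mmp12, Mmp8 and Mmp27 lie above 2 in every library and the other 6 genes below 0.5, and old libraries lie wholly above young ones for Mmp8 and Mmp27 but not for Mmp13 and Mmp12.

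The other expressed pair of the cluster behaved differently between libraries. Mmp12 (7344381 to 7369499 on chromosome 9) encodes macrophage elastase, which cuts elastin. Its level was 11.0, 8.31 and 4.98 FPKM across young replicates 1 to 3, and 19.8, 5.74 and 6.47 FPKM across old replicates 1 to 3. Old replicate 1 stood above all other libraries, and the other 2 old libraries lay within the young range. Means were 8.11 ± 3.03 and 10.7 ± 7.93 FPKM (SD, n = 3 per group), with a change of 0.22 (SE 0.456, limma adjusted p = 0.86; 95% interval -0.86 to 1.29, unadjusted). The sign rested on single libraries, since the change was -0.30 without old replicate 1 and -0.06 without young replicate 3. Mmp13 (7272514 to 7283331 on chromosome 9) encodes a collagenase that also cuts aggrecan and gelatin. Its level was 18.1, 17.5 and 15.1 FPKM across young replicates 1 to 3, and 21.1, 12.1 and 14.0 FPKM across old replicates 1 to 3. Here too old replicate 1 was the highest library and the groups overlapped. The change was -0.13 (SE 0.19, limma adjusted p = 0.788; 95% interval -0.58 to 0.32, unadjusted), and it was 0.03 without old replicate 2.

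The 250 bases before the RefSeq start of these 4 cluster genes (GRCm38.p6, plus strand) are shown because the pairs differ in library pattern. AP-1, the Fos and Jun dimer known to drive several metalloproteinase genes, binds the motif TGANTCA, and its matches are in capitals, except that those in the upstream Mmp12 sequence mark a kappaB match. For Mmp12 both listed starts are shown.
Mmp13, chr9:7272264-7272513: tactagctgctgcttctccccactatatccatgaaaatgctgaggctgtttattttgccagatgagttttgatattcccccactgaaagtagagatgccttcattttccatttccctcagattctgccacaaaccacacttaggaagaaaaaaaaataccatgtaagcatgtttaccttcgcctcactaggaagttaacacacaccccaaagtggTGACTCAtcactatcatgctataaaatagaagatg
Mmp12 upstream start, chr9:7344147-7344396: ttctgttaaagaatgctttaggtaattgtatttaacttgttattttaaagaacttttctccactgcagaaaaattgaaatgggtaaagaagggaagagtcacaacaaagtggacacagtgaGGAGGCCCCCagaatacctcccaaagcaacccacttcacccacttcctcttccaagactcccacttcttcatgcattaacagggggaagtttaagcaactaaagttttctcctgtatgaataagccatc
Mmp12 downstream start, chr9:7347124-7347373: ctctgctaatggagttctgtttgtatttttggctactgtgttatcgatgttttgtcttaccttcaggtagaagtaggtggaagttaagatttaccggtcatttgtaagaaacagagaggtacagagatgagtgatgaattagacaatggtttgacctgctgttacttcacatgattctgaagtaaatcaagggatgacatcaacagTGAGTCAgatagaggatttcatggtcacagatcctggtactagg
Mmp8, chr9:7558179-7558428: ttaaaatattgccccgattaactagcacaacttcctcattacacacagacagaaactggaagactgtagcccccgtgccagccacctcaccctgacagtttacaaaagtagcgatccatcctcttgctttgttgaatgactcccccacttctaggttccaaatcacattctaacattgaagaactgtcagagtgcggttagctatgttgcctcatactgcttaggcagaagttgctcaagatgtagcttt
Mmp27, chr9:7571146-7571395: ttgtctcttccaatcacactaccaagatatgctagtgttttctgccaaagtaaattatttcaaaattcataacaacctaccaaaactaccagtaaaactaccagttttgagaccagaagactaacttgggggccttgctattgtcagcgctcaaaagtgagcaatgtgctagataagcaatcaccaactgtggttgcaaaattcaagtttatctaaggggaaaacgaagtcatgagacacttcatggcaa
The Mmp13 sequence holds a match, TGACTCA, 29 to 35 bases before the start, and the downstream Mmp12 sequence holds TGAGTCA 38 to 44 bases before it. The upstream Mmp12, the Mmp8 and the Mmp27 sequences do not have these letters, which says nothing more about the factor.

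RefSeq windows were at hand for 8 of the 10 genes, 9 windows in all, and Mmp9 and Mmp19 were not among them. The AP-1 motif, read on both strands, was found in 2 of the 9, the Mmp13 and downstream Mmp12 windows, and in 6.75% of 32817 windows of the same length. A kappaB motif, also read on both strands, was found in 3 of the 9 and in 45.8% of all windows, with overlapping matches in the Timp1 window. The ETS core GGAA was found in 9 of 9 and in 93.4% of all windows. A match is a description of the letters and not a bound site.

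Mmp19 (chromosome 10, 128790910 to 128800824) encodes a secreted metalloproteinase that cuts basement membrane proteins. Its level was 28.6, 21.5 and 27.6 FPKM across young replicates 1 to 3, and 49.2, 24.2 and 21.8 FPKM across old replicates 1 to 3. Old replicate 1 was again the highest library, and the groups overlapped. The change was 0.20 (SE 0.292, limma adjusted p = 0.788; 95% interval -0.49 to 0.89, unadjusted), and -0.155 without old replicate 1. Of its exon bases, 22.3% also belong to exons of Tmem198b on the opposite strand, a gene at 3.00 to 4.03 FPKM, and no label says whether strand was used in counting. Mmp12, Mmp13 and Mmp19 thus had their highest value in the same library, old replicate 1. In that library Mmp14 had its lowest value of the 6. Mmp9 and Timp1 were lowest there too, but by little. Mmp9 had 77 fragments there against 88 in old replicate 3. Timp1 had 3.91 FPKM there against 3.95 FPKM in young replicate 2, on 62 and 59 fragments. Whether that library differed in cell makeup or handling was not tested.

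**Figure D4:**
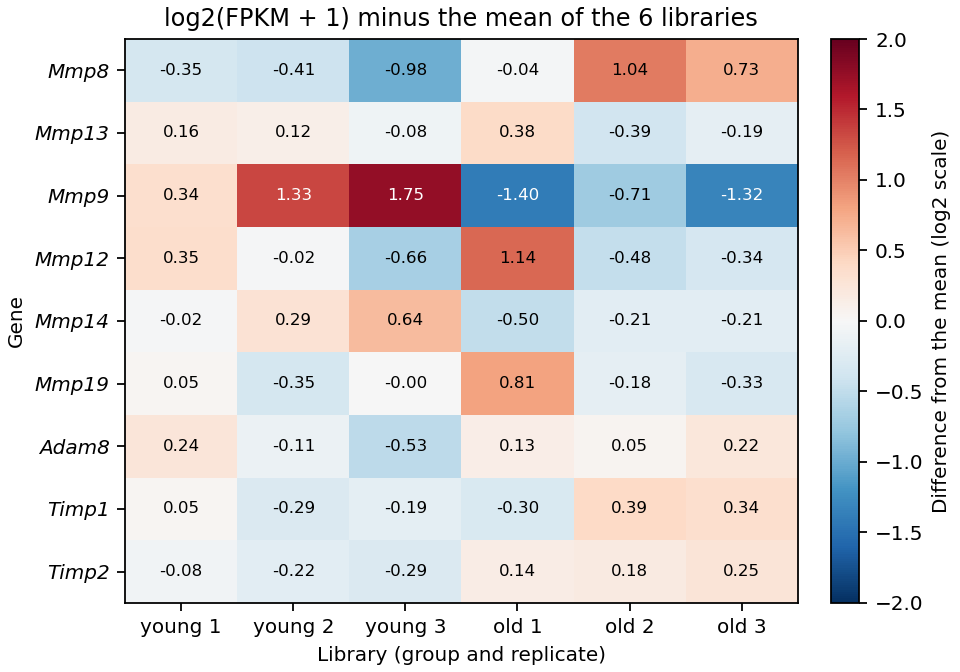
Difference of log2(FPKM + 1) from the mean of the 6 libraries for the 9 tested genes (rows) in each library (columns), red above and blue below the mean. Mmp9 and Mmp14 are above or near their means in young and below them in old, Timp2 is the reverse, and old replicate 1 is highest for Mmp12 (1.14), Mmp19 (0.81) and Mmp13 (0.38).

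Adam8 (chromosome 7, 139978932 to 139992562) encodes a membrane protease of leukocytes that sheds cell-surface proteins and cuts matrix. Its level was 191, 150.0 and 112 FPKM across young replicates 1 to 3, and 177, 168 and 189 FPKM across old replicates 1 to 3. Young replicate 1 was the highest library and young replicate 3 the lowest, and the old libraries lay between them. The coefficient of variation was 26.1% in young and 6.0% in old. The change was 0.27 (SE 0.181, limma adjusted p = 0.542; 95% interval -0.16 to 0.70, unadjusted), a difference within the spread of the young libraries. It was 0.07 without young replicate 3 and 0.45 without young replicate 1.

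Timp2 was the most abundant of the 3 inhibitor transcripts in every library. The gene (chromosome 11, 118301069 to 118355740) encodes a secreted inhibitor that also forms a bridge between Mmp14 and the Mmp2 precursor at the cell surface. Its level was 181, 164 and 156 FPKM across young replicates 1 to 3, and 211, 216 and 227 FPKM across old replicates 1 to 3. The old libraries all lay above the young ones, and the spread within groups was small, with coefficients of variation of 7.52% in young and 3.92% in old. Means were 167 ± 12.6 and 218 ± 8.54 FPKM (SD, n = 3 per group), a ratio of 1.30. The change was 0.38 (SE 0.08, limma adjusted p = 0.152; 95% interval 0.19 to 0.57, unadjusted), and it ranked 146 by p among the 11108 genes.

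Timp1 (chromosome X, 20870166 to 20874735) encodes a secreted inhibitor that binds Mmp9 and its precursor. Its level was 5.24, 3.95 and 4.30 FPKM across young replicates 1 to 3, and 3.91, 6.93 and 6.63 FPKM across old replicates 1 to 3. Old replicates 2 and 3 lay above every young library and old replicate 1 below every one, narrowly so for young replicate 2, so the groups overlapped. The change was 0.29 (SE 0.193, limma adjusted p = 0.542; 95% interval -0.17 to 0.74, unadjusted), on 59 to 108 fragments per library. It was 0.16 without old replicate 2, 0.19 without old replicate 3, 0.51 without old replicate 1 and 0.43 with libraries weighted by their spread, and it was called in none of these. Timp1 lies within Syn1 on the opposite strand without sharing exon bases. Timp3 (chromosome 10, 86300372 to 86349506) encodes an inhibitor that stays bound to the matrix and also blocks several ADAM proteases. It had 24, 4 and 16 fragments across young replicates 1 to 3 and 2, 4 and 6 across old replicates 1 to 3. These correspond to 0.159, 0.0292 and 0.115 FPKM in young and 0.0137, 0.0285 and 0.0402 FPKM in old. A count of 3 fragments would be 0.0199 to 0.0219 FPKM, so 1 old library was below that level and the groups overlapped. Without the minimum level the change of Timp3 was -0.10 (limma adjusted p = 0.577), and no difference was detectable at this depth. Of its exon bases, 21.3% are shared with Syn3 on the opposite strand. The fibroblast sums given for Mmp14 also apply here, since fibroblasts are known to make Timp3.

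The proteinase and inhibitor transcripts were also summed per library, as a description without a test. The 6 metalloproteinases together had 114.5, 122.2 and 140.4 FPKM across young replicates 1 to 3, and 131, 101.7 and 96.8 FPKM across old replicates 1 to 3, so the sums overlapped. The 3 inhibitors together had 186, 168 and 161 FPKM in young and 214, 223 and 234 FPKM in old, of which Timp2 made up 96.9% to 98.2%. The ratio of inhibitor to proteinase sums was 1.63, 1.37 and 1.14 in young and 1.64, 2.19 and 2.42 in old, with young replicate 1 and old replicate 1 all but equal. Mmp14 made up 38.4% to 49.9% of the proteinase sum in young and 23.9% to 39.7% in old. Mmp9 made up 5.60% to 13.4% in young and 0.929% to 2.55% in old, while Mmp8 made up 2.73% to 5.65% and 6.30% to 18.3%. Mmp8 was thus 0.204 to 1.01 times as abundant as Mmp9 in young and 6.79 to 10.8 times as abundant in old, on the FPKM scale.

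Of the wider pathway, 92 genes in 6 lists were measured and 47 reached the minimum level. None was called by limma or by limma voom. At an unadjusted p under 0.05, 9 had higher and 5 lower values in old, beside 8.84% and 6.18% of all tested genes, and the median change of the 47 was 0.03, beside 0.01 over all tested genes. Among 17 other metalloproteinases 3 were tested, Mmp27, Mmp2 and Mmp23, and 4 were listed at 0 in every library. Mmp23 lay wholly lower in old, at 1.26 ± 0.109 and 1.02 ± 0.176 FPKM (change -0.17, limma adjusted p = 0.555), as 8.59% of all tested genes did. Mmp27, given above, lay wholly higher, as 12.3% did, and Mmp2 overlapped.

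Among 16 other ADAM and ADAMTS proteases, 7 were tested and 3 had an unadjusted p under 0.05, all with higher values in old and groups that did not overlap, beside 8.84% with such a p and 12.3% wholly higher over all tested genes. Adam9, a widely expressed sheddase, had 69.7, 66.3 and 67.5 FPKM across young replicates 1 to 3 and 89.0, 87.4 and 81.7 FPKM across old replicates 1 to 3 (change 0.34, SE 0.065, limma adjusted p = 0.141). Adam10, the sheddase that cuts Notch, had 45.8 ± 1.31 and 54.6 ± 1.22 FPKM (change 0.25, adjusted p = 0.172). Adam19 had 6.11 ± 1.84 and 10.1 ± 1.73 FPKM (change 0.66, adjusted p = 0.214). Adam15 overlapped between groups (change 0.17, adjusted p = 0.498).

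In the list of other inhibitors and clearance genes, 4 of 8 were tested. Lrp1, an endocytic receptor that takes up metalloproteinases bound to their inhibitors, had 161, 127 and 115 FPKM across young replicates 1 to 3 and 193, 167 and 184 FPKM across old replicates 1 to 3 (change 0.44, SE 0.131, limma adjusted p = 0.217). Its old libraries all lay above the young ones. Sparc, a matrix-binding protein made mostly by stromal cells, had 2.48 ± 0.78 and 0.83 ± 0.0283 FPKM (change -0.90, adjusted p = 0.141), lower in every old library like the fibroblast sum. Cst3 (0.15, adjusted p = 0.437) lay wholly higher in old too, and Thbs1 (0.00, adjusted p = 0.999) overlapped. Of the 4 tested, 2 thus lay wholly higher and 1 wholly lower, beside 12.3% and 8.59% of all tested genes. Reck, a membrane-anchored inhibitor, was at most at 0.176 FPKM.

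Activators and the plasminogen system had 11 of 17 genes tested, and 2 had higher values in old at an unadjusted p under 0.05, beside 8.84% of all tested genes. Bsg, a membrane protein known to induce metalloproteinases in neighbouring cells, had 143 ± 8.64 and 173 ± 10.2 FPKM (change 0.27, limma adjusted p = 0.218), with groups that did not overlap. Anxa2, which binds plasminogen at the cell surface, overlapped between groups (change 0.43, adjusted p = 0.317). Plaur, the urokinase receptor, overlapped as well (-0.22, adjusted p = 0.501).

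**Figure D5:**
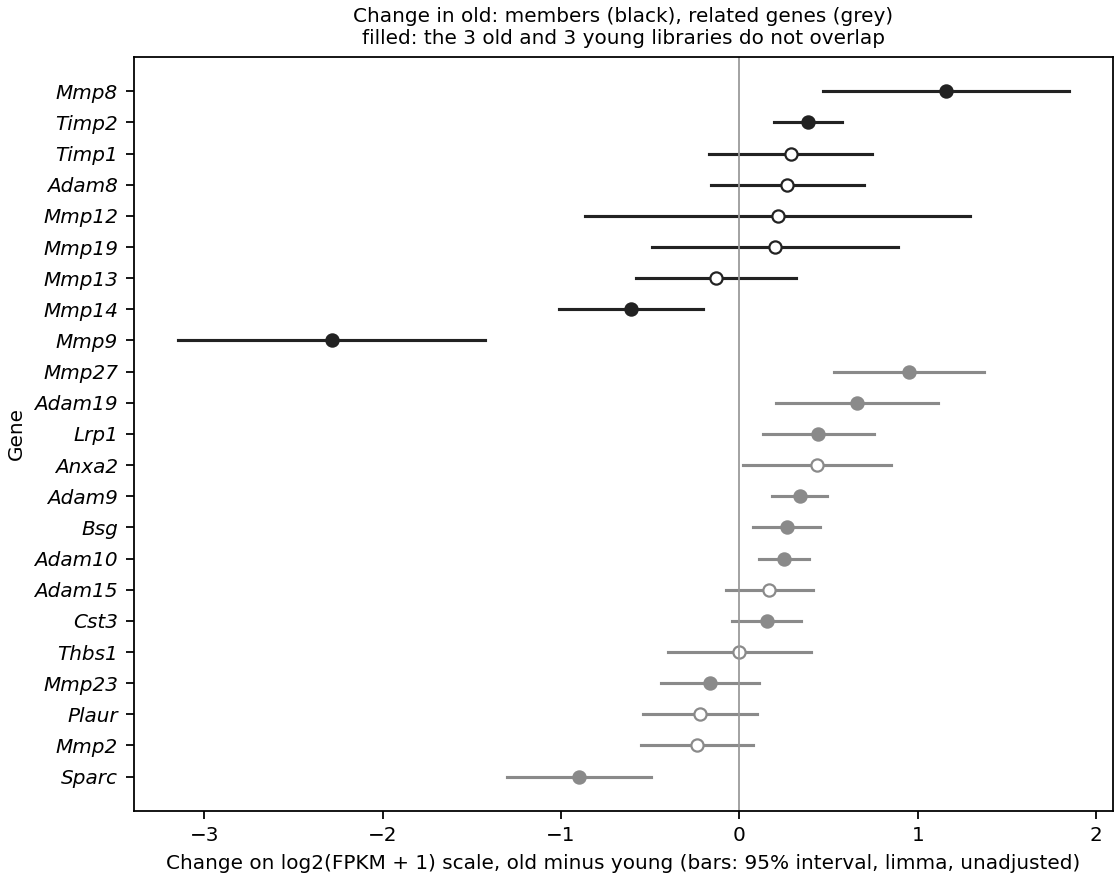
Change from young to old on the log2(FPKM + 1) scale with its 95% interval (limma, unadjusted) for the 9 tested genes (black) and the named genes of the protease, inhibitor and activator lists (grey), filled where the 3 old and 3 young libraries do not overlap. Mmp9 lies farthest to the left (-2.29), Mmp8 farthest to the right (1.16), and none of the genes drawn passed the adjusted threshold.

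Among matrix substrates 5 of 16 were tested, and Col4a1 (-0.58, limma adjusted p = 0.144) and Col1a1 (-0.72, adjusted p = 0.216) had lower values in every old library, at 2.64 FPKM or less in any library. Over all tested genes 8.59% lay wholly lower in old. Col1a1 is also the tested fibroblast marker given for Mmp14. Spp1, which encodes osteopontin, a known metalloproteinase substrate, had 3188, 3043 and 1715 FPKM across young replicates 1 to 3 and 2169, 4202 and 4048 FPKM across old replicates 1 to 3, with overlap (0.38, adjusted p = 0.639). Fn1, which encodes fibronectin, overlapped too (-0.34, adjusted p = 0.66). Of 18 genes for AP-1, ETS and NF-kappaB factors and Nfatc1, 17 were tested, and an unadjusted p under 0.05 was found for 2 with higher and 2 with lower values in old. Nfkb2 had 62.3 ± 10.2 and 45.1 ± 3.9 FPKM (change -0.45, limma adjusted p = 0.208), and Nfatc1, the factor that drives osteoclast formation and Mmp9 in osteoclasts, had 17.8 ± 1.69 and 14.5 ± 0.328 FPKM (change -0.28, adjusted p = 0.208). Atf3, which dimerizes with Jun, had 465 ± 19.0 and 577 ± 62.5 FPKM (change 0.31, adjusted p = 0.247), and the ETS factor Elk3 had 22.0 ± 0.65 and 25.0 ± 0.481 FPKM (change 0.17, adjusted p = 0.251). In these 4 of the 17 the groups did not overlap. Over all tested genes the groups did not overlap in 20.9%, and 15% had an unadjusted p under 0.05. Nfatc1 is also 1 of the 4 lower osteoclast-like genes given above.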

How the data were processed

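RNA of 3 young and 3 old macrophage samples was measured by sequencing. The authors deposited 1 table of FPKM per gene and library, with GRCm38.p6 as the build in the submitters' processing notes. No source used here names the aligner, counter, annotation release or strandedness.

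Gene identifiers were matched to GENCODE M21 (54495 of 54966, 99.14%). FPKM times exon-union length gave whole fragments, within 0.02 and below 200, for 97.5% to 97.6% of values per library, and these gave the depths. The log2(FPKM + 1) values of genes whose mean reached 1 FPKM were tested with limma 3.58.1 (R 4.3.3), moderated with a trend on mean level, two-sided, Benjamini-Hochberg adjusted at 0.05. The exact permutation test was two-sided. The fit was tested on simulated data.

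The genes, lists and naming rule were chosen with earlier results of these data known. All 10 genes are named, with up to 4 genes of smallest p from each related list, except that 1 gene is not reported here. Mmp10, Mmp3 and other genes at or near 0, Reck and the single markers were named after their values were seen. The 18 alternatives changed the pseudocount, minimum level, scaling, moderation, weights, replicate block or libraries, or used limma voom on the recovered fragments. Protein sequences were not used here. Intervals come from limma and reflect the spread between libraries, of which counting error is a part. Python 3.11.15, numpy 2.4.6, pandas 2.3.3 and matplotlib 3.10.9 were used.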

Additional observations from a re-analysis of the deposited data

How the results depend on the processing

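Across the 18 alternative settings the changes of the 9 tested genes were recomputed 162 times, and 156 kept both their direction and their side of the threshold. The changes of Mmp8, Mmp9, Mmp14, Timp1, Timp2 and Adam8 kept their direction in all of them. With values scaled to the same sum in every library (TPM), the median change over all tested genes was -0.049, against 0.012 in the main setting. The change of Timp2 was then 0.32 and that of Adam8 0.21. With libraries scaled by their median ratio, the median change was 0.011, and Timp2 had 0.38 and Adam8 0.27. With array weights Mmp9 passed (-2.42, limma adjusted p = 0.0355). With 1 library left out, its change ran from -2.69 to -1.98 (adjusted p from 0.0484, without young replicate 1, to 0.319). The changes of Mmp12 ran from -0.30 to 0.51, of Mmp13 from -0.35 to 0.03 and of Mmp19 from -0.155 to 0.41, with 4 reversals of direction at high adjusted p. Those of Mmp12 (-0.30) and Mmp19 (-0.155) came without old replicate 1, that of Mmp12 (-0.06) without young replicate 3, and that of Mmp13 (0.03) without old replicate 2. The cause was not tested.

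Over all tested genes, 4 were called. The number was 0 with a pseudocount of 0.1 or 0.01, without the minimum level, with a minimum of 5 FPKM and with the replicate block, 50 with array weights, 41 with voom, and 0 to 14 with 1 library left out, the 14 being without young replicate 1 and 0 without each of the others. The labels do not say whether same-numbered libraries share more than a number. Their deviations from the group means correlated at 0.032, 0.054 and 0.042 across genes, and each library correlated best with its own number. Whether they form pairs is therefore not known. With the replicate block Mmp9 had an adjusted p = 0.177, and none of the 9 genes was called. The number of related genes called was 0 in every setting. Timp3 has a fitted value only without the minimum level. Depth limits Timp3, the genes at or near 0 and low markers. Retnlg had 2 to 24 fragments per library, S100a8 had 8 to 40, and Actc1 had 1 to 6 in old.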
